A study of Mus musculus with 15 samples.

Results

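Forebrains of mice given erythropoietin before hypoxic ischemia (EPO-HI) were compared with those of mice given vehicle before sham surgery (VEH-Sham), to show which of the changes that go with the injury are seen when erythropoietin was given. The samples were chosen by their labels: 5 EPO-HI samples (11 to 15) and 5 VEH-Sham samples (1 to 5), which make 10 of the 15 samples of the series. The other 5 are VEH-HI samples (6 to 10), given vehicle before hypoxic ischemia, and are used here only beside the main comparison. The drug was injected intraperitoneally at a dose of 5 U per g body weight, and every injection, drug or vehicle, came 1 h before the procedure. The sources used here do not give strain, age, sex or the time from the procedure to sampling. No group received erythropoietin with sham surgery, so a difference between EPO-HI and VEH-Sham holds both the procedure and the drug. No label says whether the arrays of a group are separate animals, so the p-values cover only the variation among these arrays, and that may be technical.

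Hypoxic ischemia combines a shortage of oxygen with a shortage of blood flow and injures neurons within hours. Microglia, the resident macrophages of the brain, and astrocytes then change state, secrete chemokines and cytokines and build a glial scar. Erythropoietin is the kidney hormone that stimulates red cell production. Its receptor signals through the kinase JAK2 and the transcription factor STAT5, and it has been studied as an agent that protects neurons.

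Total RNA of each forebrain was measured on an Affymetrix mouse expression array, whose probe sets each read 1 stretch of transcript. Levels are log2(intensity + 16), differences are log2 differences between group means, and this scale understates changes of dim genes. "Rose", "fell" and "passed" mean a limma adjusted p under 0.05 over all 45037 probe sets without controls. Each gene is given by its brightest probe set with 1 gene symbol, which covers 18193 genes. Other probe sets of a gene can differ in sign. Besides genes marked below, 0 others had the same sign against the VEH-Sham mean for Lif, Akt1, Plat, Aldoc, Mal, Dnaja1, Pdia4 and Tmem44. For Pde10a it was 1 of 4 and for Gstm1 1 of 3. Against VEH-Sham 5 alone, 0 of 1 other had the same sign for each of Marchf10, Sftpa1, Cdkn1a, Col3a1 and Ccne1. Of 25 measured pan-neuronal genes 24 lay above the array's median on all 15 arrays, which shows neural tissue but does not tell forebrain from another brain region.

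The controls were of 2 kinds in their array statistics. VEH-Sham 1 to 4 had median intensities of 55.3 to 57.9, while VEH-Sham 5 had 39.8 and the 5 EPO-HI arrays 39.2 to 42.5. Across probe sets, which are not independent replicates, VEH-Sham 5 correlated at 0.971 to 0.976 with the EPO-HI arrays and at 0.950 to 0.953 with VEH-Sham 1 to 4. RNA quality was read from the Gapdh and Actb control probe sets. For Gapdh the 3' signal divided by the 5' signal was 0.716 to 0.753 in EPO-HI, 0.634 to 0.719 in VEH-Sham 1 to 4 and 0.731 in VEH-Sham 5. The same ratio for Actb overlapped throughout, at 1.241 to 1.504, 1.283 to 1.399 and 1.365. Sham surgery and this array set cannot be told apart except through VEH-Sham 5. Differences are therefore given from the mean of all 5 VEH-Sham arrays and, for most named genes, also from VEH-Sham 5 alone. A gene is called backed by VEH-Sham 5 where it passed, where the higher group mean was at least 6, and where VEH-Sham 5 lay outside all 5 EPO-HI levels on the side of the VEH-Sham mean. VEH-Sham 5 is also 1 of the 5 controls in the tested mean, so backing is not independent support.

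Pituitary hormone genes set 1 array of each group apart. Gh, growth hormone, read 11.09 in EPO-HI 15 and 10.26 in VEH-Sham 3, and 5.22 to 6.55 on the other 8 arrays of the comparison. Pomc, the precursor of corticotropin, read 10.46 and 8.90 on the same arrays, and 6.05 to 6.76 on the others. Counts are therefore also given with these 2 arrays left out, an alternative added after seeing the data, which leaves 4 arrays a group. In that fit 398 probe sets were higher and 981 lower in EPO-HI, and 181 rises and 161 falls were backed, in place of the counts below.

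The largest backed rises in EPO-HI included chemokine, microglial and reactive astrocyte genes, led by the chemokine gene Ccl12 with a log2 difference of 3.58. Of 19 genes of sterol synthesis 7 fell, every one of the 7 backed by VEH-Sham 5, but 0 fell with array medians made equal and 2 with EPO-HI 15 and VEH-Sham 3 left out. Across the whole array 5750 of 45037 probe sets passed (12.8%), of which 1798 were higher (3.99%) and 3952 lower (8.78%) in EPO-HI. Among genes 1030 rose (5.66%) and 1535 fell (8.44%). Backed by VEH-Sham 5 were 432 rises (2.37%) and 391 falls (2.15%), and 31 of these genes carry only predicted names. All 5 EPO-HI arrays lay above all 5 VEH-Sham arrays in 535 genes (2.94%) and below them in 733 (4.03%). VEH-Sham 5 lay below all EPO-HI arrays in 3098 genes (17%) and above them in 2925 (16.1%). The split between higher and lower depends on the scaling: 49.3% of calls were higher after quantile normalization and 84.5% with array medians made equal, which moved the median difference of all genes from -0.07 to 0.21.

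VEH-Sham 5 shrank the differences as well as the list. The genes that rose had a median difference of 0.47 from the VEH-Sham mean and 0.15 from VEH-Sham 5. Those that fell had -0.74 and -0.21. VEH-Sham 5 read inside the EPO-HI range for 537 of the risen and 896 of the fallen genes, and on the opposite side of the EPO-HI mean for 158 and 271. With VEH-Sham 5 as the only control, 0 probe sets passed in limma (smallest adjusted p 0.0573) and 2079 had an unadjusted p under 0.05. With the array set as a block 1 passed, a probe set of the transcription factor gene Mnt, and 2080 had an unadjusted p under 0.05. Both counts of unadjusted p are a share of the 45037 probe sets below 0.05, no more than chance alone would give. None of the calls named below was therefore made within the array set of VEH-Sham 5. A comparison with 1 control array has little power, and a lost call there does not mean a smaller difference: Ccl12 was at 3.58 and 3.64, with a limma adjusted p of 0.401 and an unadjusted p of 0.000414 against VEH-Sham 5 alone.

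**Figure D1:**
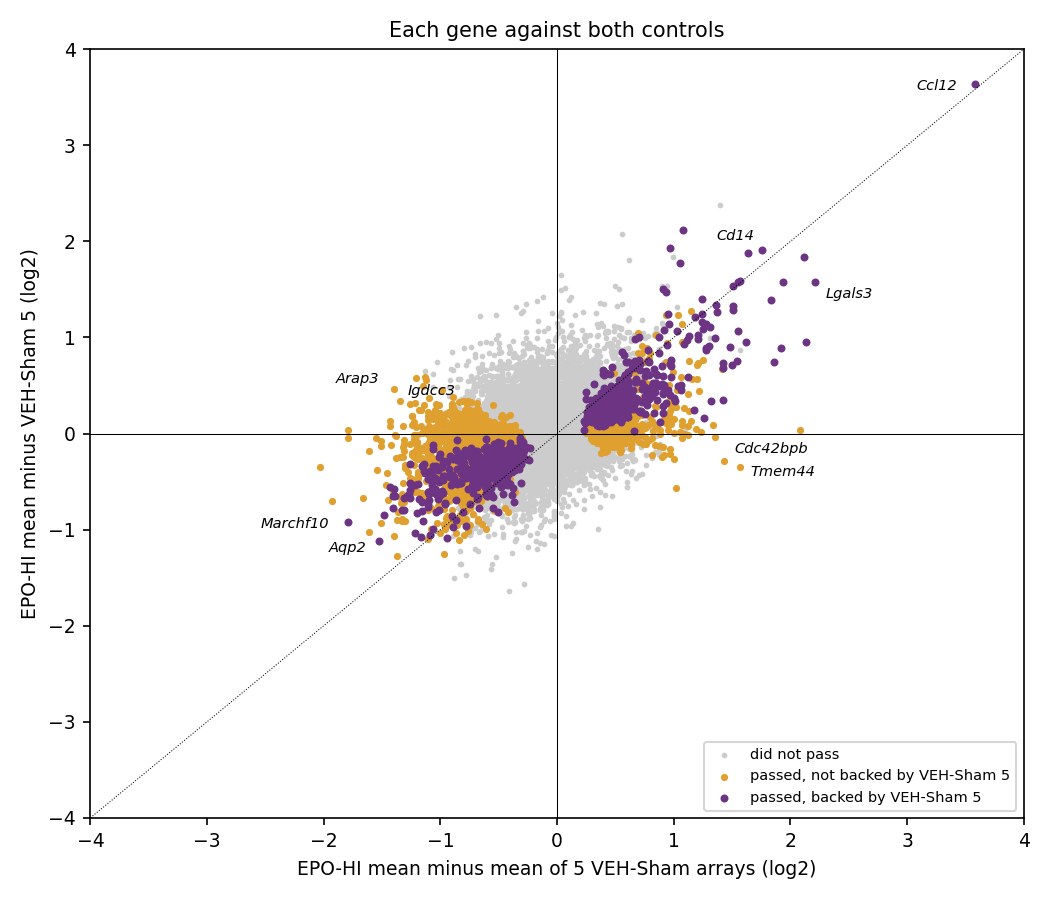
Each point is 1 of 18193 genes, with its log2 difference of EPO-HI (mean of 5 arrays) from the mean of the 5 VEH-Sham arrays on the horizontal axis and from VEH-Sham 5 alone on the vertical axis. Purple points passed and were backed by VEH-Sham 5 (432 higher, 391 lower), orange points passed and were not, grey points did not pass, and the dotted line marks equal differences. Ccl12 stands alone at the upper right at 3.58 and 3.64, while orange genes such as Tmem44 and Arap3 lie across the zero line.

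Chemokines, the small secreted proteins that draw leukocytes, held the largest rise. Ccl12, which attracts monocytes, read 8.65, 7.94, 7.21, 7.33 and 9.40 in EPO-HI 11 to 15 and 4.60, 4.46, 4.66, 4.46 and 4.46 in VEH-Sham 1 to 5. The groups lay far apart, and EPO-HI 11 and 15 were the highest. The rise was 3.58 (SE 0.40, n = 5 a group, limma adjusted p = 0.000329), and it was 3.64 from VEH-Sham 5. Its VEH-Sham levels lay under every array's median, where the added 16 weighs most, so no fold is given: the difference was 5.01 with 1 added and 2.21 with 64, and passed with either. Ccl3, a chemokine of activated microglia and macrophages, read 8.00, 6.33, 6.32, 6.63 and 7.79 in EPO-HI and 4.21 to 5.67 in VEH-Sham. EPO-HI 11 and 15 were again the highest, and the rise was 1.94 (SE 0.35, limma adjusted p = 0.00456) and 1.58 from VEH-Sham 5. Ccl6, a chemokine of myeloid cells, rose by 1.37 (SE 0.32, limma adjusted p = 0.0131, 1.27 from VEH-Sham 5), but VEH-Sham 3 at 6.46 left only 2 of 5 EPO-HI arrays above every VEH-Sham array.

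Of 19 measured chemokine and cytokine genes 3 rose (Ccl12, Ccl3 and Csf1, the growth factor of macrophages), 1 fell and 15 did not pass. The rises and the fall are 15.8% and 5.26% of the list, beside 5.66% and 8.44% of all genes. The median difference of the list was 0.15 (0.46 from VEH-Sham 5), beside -0.07 for all genes, and 2 rose with EPO-HI 15 and VEH-Sham 3 left out. The count of rises was 6 without EPO-HI 13 and 2 without EPO-HI 11 or VEH-Sham 3. Csf1 rose by 0.67 (SE 0.17, limma adjusted p = 0.0177, 0.68 from VEH-Sham 5), and its call was lost without VEH-Sham 3 or EPO-HI 11. The 3 other Csf1 probe sets had the opposite sign against the VEH-Sham mean. The gene that fell was Lif, an IL-6 family cytokine, at -0.99 from the VEH-Sham mean and -0.08 from VEH-Sham 5. Removing any 1 of VEH-Sham 1 to 4 or EPO-HI 12 ended its call (adjusted p up to 0.0695). Ccl2, Il1b and Tnf, picked after their values were seen as the best known of the list, did not pass, at 1.40 (SE 0.48, limma adjusted p = 0.0599), -0.26 and -0.11. Against VEH-Sham 5 these were 2.38, 0.56 and 0.65.

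**Figure D2:**
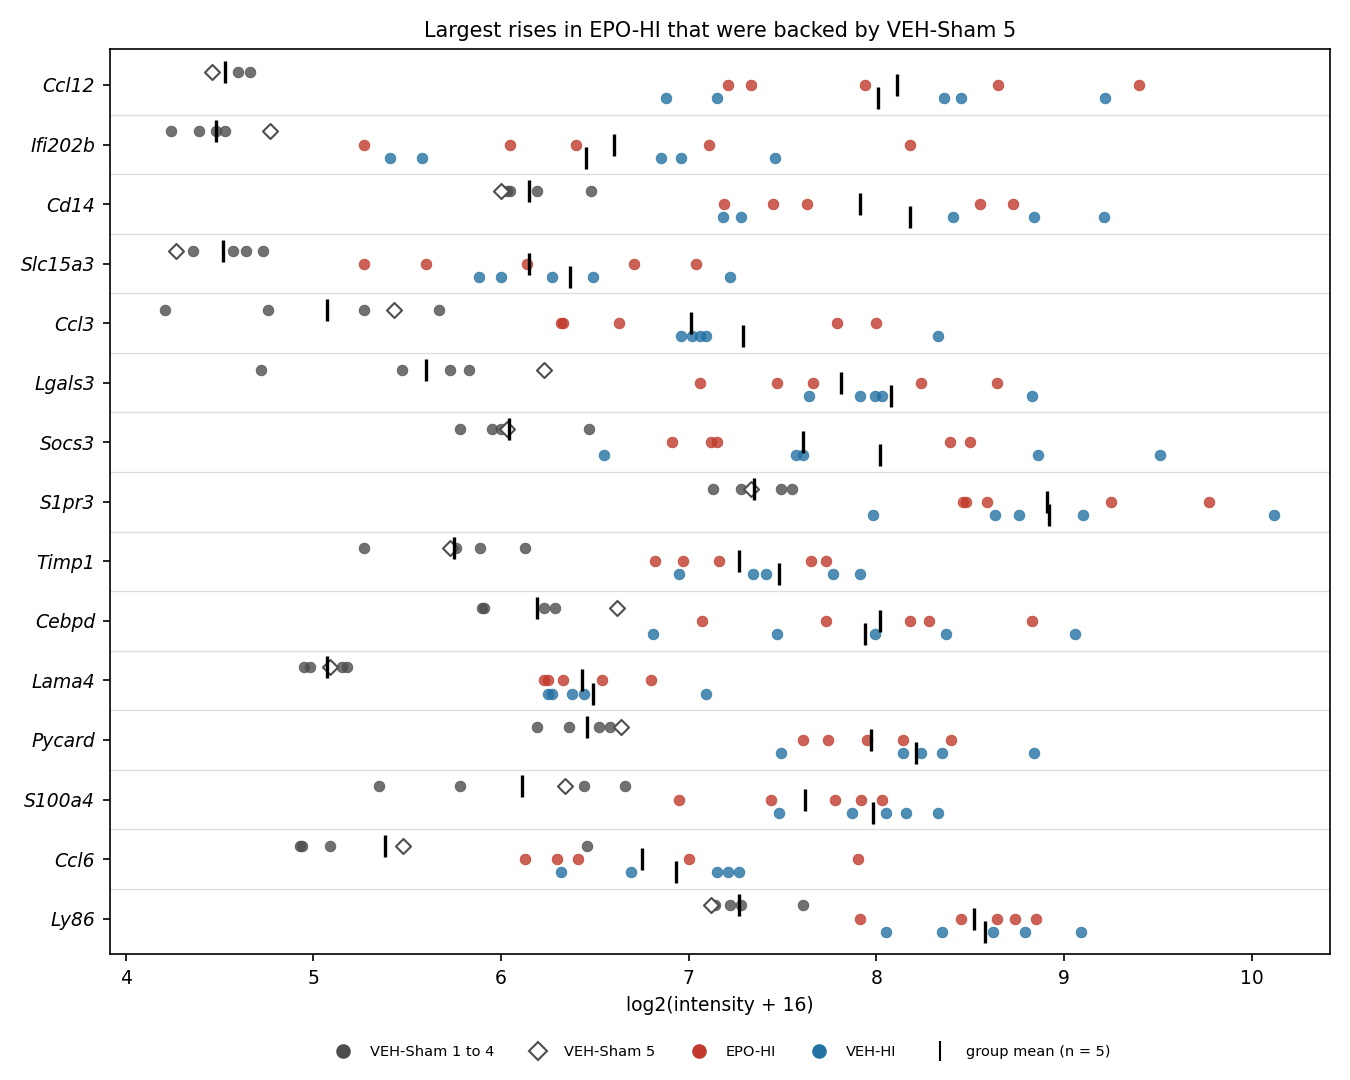
Levels, as log2(intensity + 16), of the 15 largest backed rises on every array: VEH-Sham 1 to 4 as grey dots, VEH-Sham 5 as an open diamond, EPO-HI in red, VEH-HI in blue and the mean of each group of 5 as a black bar. In 14 of the 15 genes all 5 EPO-HI arrays lie above all 5 VEH-Sham arrays, the exception being Ccl6, beside 2.94% of all genes. The choice of genes largely fixes this, since each had passed with VEH-Sham 5 below all 5 EPO-HI arrays. The VEH-HI dots overlap the EPO-HI dots in every gene.

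Receptors and adhesion molecules rose in 6 of 17 measured genes (35.3%, beside 5.66% of all genes), and none fell. All 6 were backed, beside 432 of the 1030 genes that rose on the whole array. The median difference was 0.27 from the VEH-Sham mean and 0.47 from VEH-Sham 5. Cd14, the co-receptor for bacterial lipopolysaccharide, read 8.55, 7.63, 7.19, 7.45 and 8.73 in EPO-HI and 6.00 to 6.48 in VEH-Sham. Every EPO-HI array lay above every VEH-Sham array, and the rise was 1.76 (SE 0.34, limma adjusted p = 0.00626), with 1.91 from VEH-Sham 5. Icam1, the endothelial ligand on which leukocytes halt, rose by 1.31 (SE 0.32, limma adjusted p = 0.0147, 1.11 from VEH-Sham 5). Cd44, the receptor for hyaluronan, rose by 0.93 and by 1.47 from VEH-Sham 5, which at 6.83 read lowest of the VEH-Sham arrays. Tnfrsf12a, the receptor for the cytokine TWEAK, rose by 1.08 (SE 0.35, limma adjusted p = 0.0467, 2.12 from VEH-Sham 5), with VEH-Sham 2 and 3 inside the EPO-HI range. It did not pass without any 1 of VEH-Sham 1, 2, 4 and 5 or EPO-HI 11, 12, 14 and 15 (adjusted p up to 0.111). Osmr, the oncostatin M receptor, and Vcam1, an adhesion molecule of activated endothelium, are the other genes of the list that rose, at 0.94 and 0.66. Osmr was at 0.92 from VEH-Sham 5 and was lost without VEH-Sham 1, 3 or 4 or EPO-HI 11 or 15 (limma adjusted p up to 0.0708). Vcam1 was at 0.03, with VEH-Sham 5 at 8.95 just under the lowest EPO-HI array at 8.96. With EPO-HI 15 and VEH-Sham 3 left out 2 genes of the list rose, and 4 without EPO-HI 11 or 15 or VEH-Sham 1 or 4.

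Among 23 measured microglia and macrophage genes 6 rose (26.1%) and 1 fell (4.35%), beside 5.66% and 8.44% of all genes. All 7 were backed, beside 432 of the 1030 risen and 391 of the 1535 fallen genes on the whole array. The median difference was 0.33 (0.45 from VEH-Sham 5). Lgals3, which encodes the sugar-binding protein galectin-3 of activated microglia, read 8.24, 7.66, 7.06, 7.47 and 8.64 in EPO-HI and 5.73, 5.83, 4.72, 5.47 and 6.23 in VEH-Sham. The groups did not overlap, VEH-Sham 5 was the highest control, and the rise was 2.21 (SE 0.29, limma adjusted p = 0.000617) with 1.58 from VEH-Sham 5. Mpeg1, a pore-forming protein of macrophages, read 7.99, 7.34, 7.25, 7.45 and 7.89 against 5.06, 5.94, 5.14, 5.49 and 6.70. Here VEH-Sham 5 lay between the other controls and EPO-HI, so that the rise of 1.92 (SE 0.24, limma adjusted p = 0.000561) came to 0.89 from VEH-Sham 5. Ly86, a secreted partner of a Toll-like receptor homologue, rose by 1.24 (SE 0.18, limma adjusted p = 0.00154, 1.40 from VEH-Sham 5). Msr1, a scavenger receptor, rose by 1.05 (1.78 from VEH-Sham 5), and it did not pass without any 1 of VEH-Sham 1, 2, 3 and 5 or EPO-HI 11, 14 and 15 (limma adjusted p up to 0.101). Tyrobp, a signalling adaptor of microglial receptors, and Cd68, a lysosomal protein of phagocytes, complete the 6 rises at 0.90 and 0.67 (0.70 and 0.98 from VEH-Sham 5). With EPO-HI 15 and VEH-Sham 3 left out 4 genes rose and 1 fell.

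The microglial gene that fell was P2ry12, the ADP receptor of resting microglia, which is named for its direction after the values were seen. It read 6.98, 7.77, 7.35, 7.27 and 7.05 in EPO-HI and 7.94, 8.38, 8.40, 8.07 and 7.97 in VEH-Sham, with no overlap. The fall was -0.87 (SE 0.17, limma adjusted p = 0.00626) and -0.69 from VEH-Sham 5. Tmem119, another marker of resting microglia, did not pass at -0.31 (-0.05 from VEH-Sham 5), and Cx3cr1, the fractalkine receptor, was at 0.07. In bulk tissue fewer cells of a type and less RNA per cell cannot be told apart. The summed intensity of the 23 genes was 4034 to 5551 in EPO-HI, 3342 to 4090 in VEH-Sham 1 to 4 and 3705 in VEH-Sham 5.

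Complement, the cascade that tags cells and debris for removal, rose in 3 of 9 measured genes (33.3%, beside 5.66% of all genes) and fell in none. C1qc and C1qa, chains of the recognition protein C1q, rose by 1.25 (SE 0.16, limma adjusted p = 0.000643) and 0.78 (SE 0.17, limma adjusted p = 0.0100). Both were backed, at 1.09 and 0.75 from VEH-Sham 5. C1ra, the protease that C1q carries, rose by 0.56 (0.27 from VEH-Sham 5) at a low level (4.86 in EPO-HI). It missed the threshold without any 1 of VEH-Sham 1 to 4 or EPO-HI 14 or 15 (limma adjusted p up to 0.0862). Of 19 interferon and MHC class I genes 4 rose (21.1%) and 1 fell (5.26%), beside 5.66% and 8.44% of all genes. Of the genes that passed 1 was backed. It was Ifitm3, a membrane protein that blocks virus entry, which read 9.94, 9.31, 8.69, 9.06 and 10.11 in EPO-HI and 7.77 to 8.53 in VEH-Sham. No arrays overlapped, and the rise was 1.28 (SE 0.25, limma adjusted p = 0.00651, 0.89 from VEH-Sham 5). Psmb8, a subunit of the immunoproteasome, rose by 0.96 and was at 0.51 from VEH-Sham 5. Irf1, an interferon-regulated transcription factor, and Ifi35 passed at 0.46 and 0.70 and stood at 0.14 and 0.19. Stat2, which carries the interferon signal to the nucleus, passed at -0.61 with 0.02 from VEH-Sham 5. These 3 calls were lost when the fit lacked any 1 of VEH-Sham 1 to 4 or EPO-HI 11 or 15, those of Irf1 and Ifi35 also without EPO-HI 12 and those of Ifi35 and Stat2 also without EPO-HI 14 (limma adjusted p up to 0.104, 0.103 and 0.0807). With EPO-HI 15 and VEH-Sham 3 left out 1 complement gene and 2 of the interferon list rose.

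The 15 largest backed rises also held genes that are in none of the lists above. Ifi202b, an interferon-inducible DNA-binding protein, read 7.11, 6.40, 5.27, 6.05 and 8.18 in EPO-HI against 4.24 to 4.77 in VEH-Sham, and rose by 2.12 (SE 0.44, limma adjusted p = 0.00722, 1.84 from VEH-Sham 5). The EPO-HI arrays differed among themselves by up to 2.91, with EPO-HI 13 lowest and 15 highest. Slc15a3, a peptide and histidine transporter of lysosomes, rose by 1.64 (SE 0.30, limma adjusted p = 0.00509, 1.88 from VEH-Sham 5), again with EPO-HI 13 lowest, at 5.27. Pycard, the adaptor of inflammasomes, rose by 1.51 (1.33 from VEH-Sham 5), but 0 of its 2 other probe sets had the same sign against the VEH-Sham mean. Cebpd, a transcription factor of the acute-phase response, rose by 1.83 (SE 0.33, limma adjusted p = 0.00468, 1.39 from VEH-Sham 5), and S100a4, a calcium-binding protein of migrating cells, by 1.51 (1.29 from VEH-Sham 5).

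Reactive astrocyte genes were the list with the most rises: 11 of 23 measured genes rose (47.8%, beside 5.66% of all genes), and 0 fell. Of the 11 rises 10 were backed, beside 432 of all 1030 risen genes. The median difference was 0.88, with 0.76 from VEH-Sham 5, and 20 of 23 members were above 0 against either control. Without any 1 array 9 to 12 rose, and with EPO-HI 15 and VEH-Sham 3 left out 5 rose, at a median of 0.69. Timp1, a secreted inhibitor of metalloproteases, read 7.65, 7.16, 6.97, 6.82 and 7.73 in EPO-HI and 6.13, 5.27, 5.89, 5.76 and 5.73 in VEH-Sham. All EPO-HI arrays were higher, by 1.51 (SE 0.21, limma adjusted p = 0.000939) and 1.54 from VEH-Sham 5. S1pr3, a receptor for sphingosine 1-phosphate, read 9.77, 8.59, 8.46, 8.48 and 9.25 against 7.13 to 7.55, and rose by 1.55 (SE 0.29, limma adjusted p = 0.00541, 1.58 from VEH-Sham 5). Its 2 other probe sets had the same sign. S100a6, a calcium-binding protein, and Ptx3, a secreted pattern-recognition protein, rose by 1.28 and 1.24 (1.14 and 1.16 from VEH-Sham 5). For Ptx3 the 1 other probe set had the opposite sign against either control.

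The filament genes that define reactive astrocytes also rose, and are named after their values were seen. Gfap read 10.72, 9.26, 9.61, 9.58 and 9.34 in EPO-HI and 8.53, 8.78, 8.33, 8.56 and 8.74 in VEH-Sham. EPO-HI 11 stood highest, there was no overlap, and the rise was 1.11 (SE 0.27, limma adjusted p = 0.0158, 0.97 from VEH-Sham 5). Vim, which encodes vimentin, read 12.06, 11.47, 11.27, 11.49 and 11.90 against 10.51 to 10.70 and rose by 1.03 (SE 0.14, limma adjusted p = 0.00105, 1.07 from VEH-Sham 5). Serpina3n, a protease inhibitor, rose by 2.13 (SE 0.40, limma adjusted p = 0.00556), but VEH-Sham 5 at 6.70 was the highest control and left a difference of 0.95. Cp (ceruloplasmin), Anxa2 and S100a10 (partners at the cell membrane) rose by 1.00, 0.88 and 0.39, with 0.37, 0.49 and 0.62 from VEH-Sham 5. S100a10 was lost without VEH-Sham 2 or EPO-HI 11 (limma adjusted p up to 0.0514). Tm4sf1, a membrane protein, passed without backing at 1.06 (0.59 from VEH-Sham 5), and was lost without VEH-Sham 2 or EPO-HI 11 (limma adjusted p up to 0.0515).

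Genes that mark astrocytes in any state moved less. Of 15 measured, 4 rose (26.7%, beside 5.66% of all genes) and 0 fell, with a median of 0.16 and of 0.03 from VEH-Sham 5. Aldh1l1, a folate enzyme, rose by 0.79 (SE 0.12, limma adjusted p = 0.00206) and was backed at 0.36 from VEH-Sham 5. Aqp4, the water channel of astrocyte endfeet, rose by 0.46 and was backed at 0.38, but lost its call without VEH-Sham 3 or 4 or EPO-HI 11 (limma adjusted p up to 0.0724) and after quantile normalization. For Mlc1 and Aldoc VEH-Sham 5 lay within the EPO-HI range, with differences of 0.09 and -0.01, and their calls were lost without VEH-Sham 3 or 4 or EPO-HI 11 or 15, and for Aldoc also without VEH-Sham 1 or 2 or EPO-HI 12, 13 or 14 (limma adjusted p up to 0.141). The summed intensity of the 15 markers was 17001 to 17451 in EPO-HI, 12852 to 16996 in VEH-Sham 1 to 4 and 16343 in VEH-Sham 5, and the part of astrocyte number in the rises above was not tested.

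Of the erythropoietin receptor and its JAK-STAT pathway, 4 of 17 measured genes rose (23.5%, beside 5.66% of all genes) and 0 fell. The median was 0.04 (0.09 from VEH-Sham 5), and 0 passed with EPO-HI 15 and VEH-Sham 3 left out. Epor, the receptor itself, read 6.45, 5.56, 6.25, 5.85 and 6.50 in EPO-HI and 6.43, 6.14, 7.11, 6.48 and 6.37 in VEH-Sham. The groups overlapped, and the difference of -0.38 (SE 0.21, limma adjusted p = 0.229; -0.25 from VEH-Sham 5) did not pass. Socs3, a feedback inhibitor that STAT3 induces, read 8.39, 6.91, 7.12, 7.15 and 8.50 in EPO-HI and 6.47, 6.00, 5.78, 5.95 and 6.03 in VEH-Sham. There was no overlap, but EPO-HI 11 and 15 stood well above the other 3, and the rise was 1.57 (SE 0.42, limma adjusted p = 0.0214, 1.59 from VEH-Sham 5). Without VEH-Sham 3 or 4 or EPO-HI 11 or 15 it did not pass (adjusted p up to 0.0578). Stat3 rose by 0.64 (0.73 from VEH-Sham 5), and was lost without VEH-Sham 1, 2 or 4 or EPO-HI 11 or 15 (limma adjusted p up to 0.0780). Cish, a target of STAT5 picked after its value was seen, was at 0.00 (SE 0.10, limma adjusted p = 0.989) and 0.12 from VEH-Sham 5.

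Jak2 and the kinase gene Akt1 passed without backing, at 0.38 and 0.43 (0.12 and -0.16 from VEH-Sham 5). Both were lost without VEH-Sham 1, 3 or 4 or EPO-HI 11, 13 or 14, with limma adjusted p up to 0.128 for Jak2, also lost without EPO-HI 15, and 0.119 for Akt1, also lost without VEH-Sham 2 or EPO-HI 12. The promoter of Socs3 is shown because this was the largest rise of the pathway. The 250 bases before the RefSeq start (GRCm38.p6, chr11:117969367-117969616, minus strand) hold 1 match to the STAT motif TTCNNNGAA, in capitals, which begins 154 bases before the start. Of 32851 RefSeq promoters 7.02% hold the motif in the same window on either strand, and a match is a description of the letters only.
Socs3: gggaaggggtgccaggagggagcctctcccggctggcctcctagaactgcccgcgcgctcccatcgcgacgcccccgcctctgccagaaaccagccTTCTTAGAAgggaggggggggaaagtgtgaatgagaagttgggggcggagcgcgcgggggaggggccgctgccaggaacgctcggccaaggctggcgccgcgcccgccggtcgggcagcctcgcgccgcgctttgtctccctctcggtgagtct

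Metallothioneins, small proteins that bind zinc and copper and quench oxidants, rose together with other oxidative stress genes. Of 14 measured genes of this list 6 rose (42.9%, beside 5.66% of all genes), and 0 fell. Of the 6 rises 4 were backed, beside 432 of all 1030 risen genes. The median was 0.22, with 0.08 from VEH-Sham 5. The count was 3 without EPO-HI 11 or VEH-Sham 4, 4 without VEH-Sham 3, and 3 with EPO-HI 15 and VEH-Sham 3 left out. Mt1 read 10.83, 10.68, 10.38, 10.52 and 11.73 in EPO-HI and 9.40, 9.17, 9.05, 9.20 and 9.93 in VEH-Sham. VEH-Sham 5 was the highest control and EPO-HI 15 the highest array, and the rise of 1.48 (SE 0.25, limma adjusted p = 0.00360) was 0.90 from VEH-Sham 5. The 1 other Mt1 probe set had the opposite sign against either control. Mt2 read 10.54, 10.39, 10.08, 10.30 and 11.58 against 9.02 to 9.59 and rose by 1.35 (SE 0.23, limma adjusted p = 0.00392, 0.99 from VEH-Sham 5). Mt3, the brain form, rose by 0.95 (SE 0.15, limma adjusted p = 0.00237, 0.45 from VEH-Sham 5).

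Mt1 and Mt2 lie near each other on chromosome 8 and their promoters are shown because these genes rose together. The letters TGCACNC or TGCGCNC, the core bound by the metal-sensing factor MTF1, were searched on both strands and matches are in capitals. The Mt1 window (GRCm38.p6, chr8:94178839-94179088, plus strand) holds 1 match, beginning 23 bases before the RefSeq start. The Mt2 window (chr8:94172368-94172617, plus strand) holds 3, beginning 223, 128 and 50 bases before the start, the last on the other strand. Among 32851 promoters 21.4% hold at least 1 match.
Mt1: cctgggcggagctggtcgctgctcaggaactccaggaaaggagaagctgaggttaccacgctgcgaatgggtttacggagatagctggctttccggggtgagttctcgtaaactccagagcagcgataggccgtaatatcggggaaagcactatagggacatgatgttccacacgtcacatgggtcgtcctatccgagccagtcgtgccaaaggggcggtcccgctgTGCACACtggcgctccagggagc
Mt2: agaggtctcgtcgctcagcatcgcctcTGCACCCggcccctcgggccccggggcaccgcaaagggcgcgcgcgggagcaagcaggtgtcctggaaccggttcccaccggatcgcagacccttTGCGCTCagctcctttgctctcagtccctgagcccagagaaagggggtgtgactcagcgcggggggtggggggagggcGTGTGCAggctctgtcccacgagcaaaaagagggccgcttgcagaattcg

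The remaining genes of that list moved less or were not backed. Hmox1, the heme-degrading enzyme, rose by 1.20 (SE 0.34, limma adjusted p = 0.0272, 0.57 from VEH-Sham 5), but EPO-HI 13 at 5.91 lay under VEH-Sham 5 at 5.94. The call was lost without VEH-Sham 3 or 4 or EPO-HI 11 or 15 (limma adjusted p up to 0.0791). Gstm1, a glutathione transferase with near-identical relatives that its probe set may also read, rose by 0.34 and was backed at 0.23. It was lost without VEH-Sham 3 or 4 or EPO-HI 11 (limma adjusted p up to 0.0560) and after quantile normalization. Txn1, thioredoxin, passed at 0.36 but stood at 0.04 from VEH-Sham 5, and was lost without VEH-Sham 1, 2 or 4 or EPO-HI 11 (limma adjusted p up to 0.0637).

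Of 19 matrix, TIMP and plasminogen genes 5 rose (26.3%) and 1 fell (5.26%), beside 5.66% and 8.44% of all genes. The median was 0.29, with 0.14 from VEH-Sham 5. Fn1, fibronectin, read 9.28, 8.60, 8.78, 8.64 and 8.91 in EPO-HI and 7.74 to 8.24 in VEH-Sham, with no overlap. It rose by 0.91 (SE 0.16, limma adjusted p = 0.00386, 0.60 from VEH-Sham 5), although its 1 other probe set had the opposite sign against the VEH-Sham mean. Col4a1, a basement membrane collagen, rose by 0.81 and was backed at 0.49. Plat, tissue plasminogen activator, passed at 0.34 (0.12 from VEH-Sham 5) and was lost without VEH-Sham 1, 2 or 4 or EPO-HI 11, 14 or 15 (limma adjusted p up to 0.0889). Of the list 2 rose and 0 fell with EPO-HI 15 and VEH-Sham 3 left out. Lama4, a laminin chain of vessel walls, rose by 1.36 (SE 0.18, limma adjusted p = 0.000831, 1.34 from VEH-Sham 5) and varied little, with 6.23 to 6.80 in EPO-HI against 4.95 to 5.18. Mmp3, a metalloprotease, fell by 0.81 to a low level (5.21; -0.41 from VEH-Sham 5), and it was lost without VEH-Sham 2, 3 or 4 or EPO-HI 11, 12 or 14 (limma adjusted p up to 0.101) and under both other scalings.

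Sterol synthesis, the pathway that builds cholesterol in the cell, had the most falls of the 28 lists. Of 19 measured genes 7 fell (Pmvk, Mvd, Fdps, Lss, Cyp51, Nsdhl and Stard4), all 7 backed, and 0 rose. The falls are 36.8% of the list, beside 8.44% of all genes, and 391 of all 1535 fallen genes were backed. VEH-Sham 5 lay above all 5 EPO-HI arrays in 17 of the 19, beside 16.1% of all genes. The summed intensity of the 19 genes was 13961 to 17486 in EPO-HI, 16989 to 18773 in VEH-Sham 1 to 4 and 22993 in VEH-Sham 5. VEH-Sham 5 thus stood above the other controls, whose range EPO-HI overlapped. The backing and the differences from VEH-Sham 5 rest on this 1 high array. The median was -0.31 from the VEH-Sham mean and -0.51 from VEH-Sham 5, beside -0.07 and 0.00 for all genes. Cyp51, lanosterol demethylase, read 9.04, 9.37, 9.31, 9.31 and 9.34 in EPO-HI and 9.55, 9.68, 9.72, 9.81 and 9.76 in VEH-Sham. No arrays overlapped, EPO-HI 11 was the lowest, and the fall was -0.43 (SE 0.09, limma adjusted p = 0.00747, -0.49 from VEH-Sham 5). Stard4, a carrier of cholesterol within the cell, read 7.29, 8.01, 8.07, 7.90 and 7.69 against 8.25 to 8.54 and fell by 0.61 (SE 0.15, limma adjusted p = 0.0144, -0.64 from VEH-Sham 5).

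Lss, lanosterol synthase, fell by 0.46 (SE 0.12, limma adjusted p = 0.0181, -0.63 from VEH-Sham 5), and its 5 EPO-HI arrays read 7.27 to 7.72 while its VEH-Sham arrays began at 7.86. Fdps, which makes farnesyl diphosphate, fell by 0.55 (SE 0.16, limma adjusted p = 0.0277, -0.77 from VEH-Sham 5) and lost its call without VEH-Sham 1 or 4 or EPO-HI 11, 13 or 15 (adjusted p up to 0.0662). Mvd, Nsdhl and Pmvk, also enzymes of the pathway, fell by 0.39, 0.37 and 0.31 and stood at -0.64, -0.71 and -0.51 from VEH-Sham 5. Each was lost without VEH-Sham 1, 2 or 4 or EPO-HI 11, 14 or 15, Mvd and Nsdhl also without VEH-Sham 5 or EPO-HI 13, Mvd also without VEH-Sham 3 and Pmvk also without EPO-HI 12 (limma adjusted p up to 0.0890, 0.0955 and 0.102). With array medians made equal 0 of 19 passed, at a median of -0.04 beside 0.21 for all genes, and after quantile normalization 9 fell, at -0.36 beside 0.00. Leaving out 1 array gave 3 falls (without VEH-Sham 1 or EPO-HI 11 or 15), 4 (without VEH-Sham 2 or 4 or EPO-HI 13 or 14), 6 or 7, and 2 fell with EPO-HI 15 and VEH-Sham 3 left out, where the median stayed at -0.31. Hmgcs1, Sqle and Idi1, picked after their values were seen as early and middle steps of the pathway, did not pass, at -0.02, -0.27 and -0.25, and stood at -0.45, -0.53 and -0.50 from VEH-Sham 5.

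**Figure D3:**
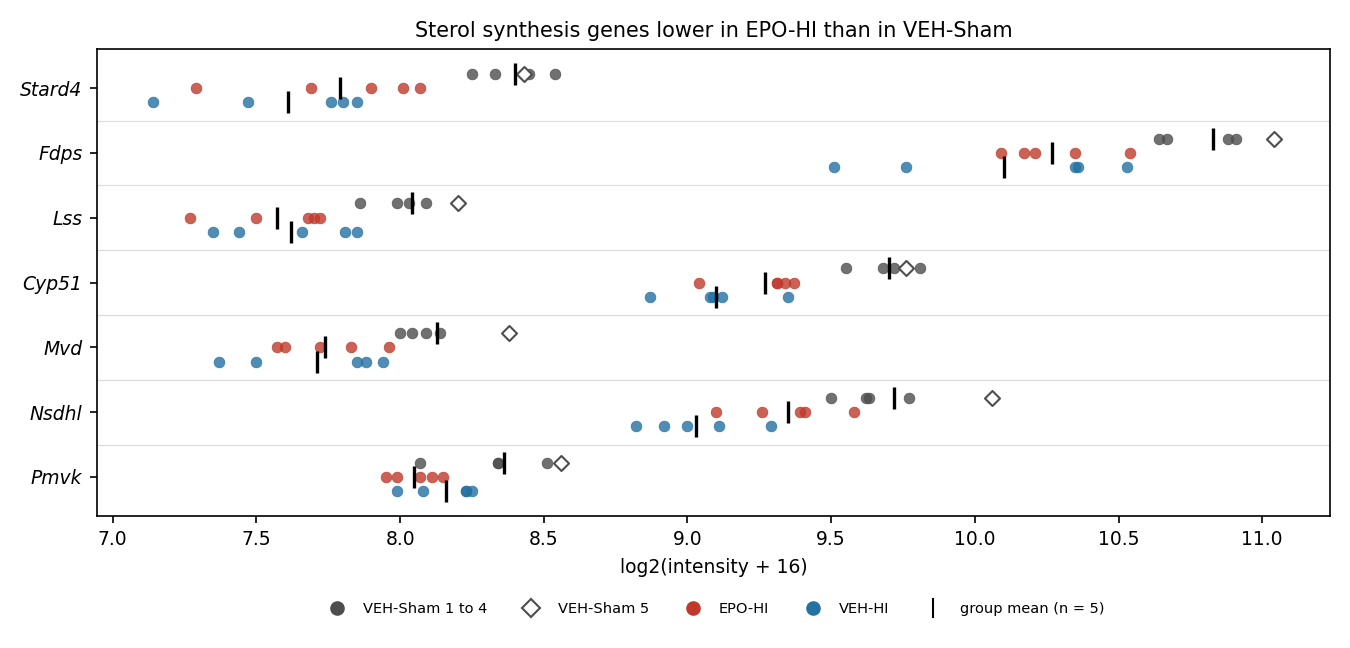
Levels, as log2(intensity + 16), of the 7 sterol synthesis genes that fell, on every array, with VEH-Sham 1 to 4 as grey dots, VEH-Sham 5 as an open diamond, EPO-HI in red, VEH-HI in blue and group means (n = 5) as black bars. VEH-Sham 5 lies above all 5 EPO-HI arrays in each gene, as backing requires, and the VEH-HI means run from 0.32 under (Nsdhl) to 0.10 above (Pmvk) the EPO-HI means.

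Sterol genes share promoter elements for the factors SREBP and NF-Y, and the promoters of Lss and Cyp51 are shown as examples. Neither gene overlapped between the groups and both passed without any 1 array. The same held for Stard4, whose promoter is not shown. With EPO-HI 15 and VEH-Sham 3 left out Lss and Stard4 did not pass (limma adjusted p = 0.0570 and 0.0769). CCAAT, the letters that NF-Y binds, was searched on both strands, and matches are in capitals, in Lss on the other strand. The Lss window (GRCm38.p6, chr10:76531355-76531604, plus strand) holds 1 match, beginning 62 bases before the RefSeq start, and that of Cyp51 (chr5:4104698-4104947, minus strand) holds 1, beginning 29 bases before it. Of the 7 genes that fell 5 had an entry among the RefSeq promoters, and all 5 held CCAAT in at least 1 listed promoter, beside 37.5% of 27025 genes with an entry, counted the same way. Of 32851 single promoters 33.8% hold it.
Lss: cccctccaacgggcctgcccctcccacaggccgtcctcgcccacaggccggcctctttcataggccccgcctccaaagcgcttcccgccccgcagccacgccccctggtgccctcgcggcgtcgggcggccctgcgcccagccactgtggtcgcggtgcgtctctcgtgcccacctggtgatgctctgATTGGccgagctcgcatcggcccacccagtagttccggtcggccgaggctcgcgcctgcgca
Cyp51: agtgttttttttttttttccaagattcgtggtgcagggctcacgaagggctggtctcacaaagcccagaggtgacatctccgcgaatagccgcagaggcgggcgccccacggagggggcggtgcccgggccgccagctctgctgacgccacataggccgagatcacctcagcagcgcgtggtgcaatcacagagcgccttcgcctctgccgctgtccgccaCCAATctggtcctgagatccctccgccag

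Few neuronal genes passed. Of 25 measured pan-neuronal genes 1 rose (4%) and 0 fell, beside 5.66% and 8.44% of all genes. The median was -0.02 (-0.09 from VEH-Sham 5). After quantile normalization 0 rose and 1 fell, at a median of -0.14. With array medians made equal 4 rose and 0 fell, at 0.26 beside 0.21 for all genes. Against the VEH-Sham mean 12 of the 25 were above 0, but against VEH-Sham 5 only 4. VEH-Sham 5 lay above all EPO-HI arrays in 9 of the 25 and below them in 1, beside 16.1% and 17% of all genes. The summed intensity of the 25 genes was 40451 to 44665 in EPO-HI, 40583 to 43164 in VEH-Sham 1 to 4 and 48089 in VEH-Sham 5. The gene that rose was Npy, a peptide of inhibitory interneurons, by 0.28 (0.19 from VEH-Sham 5), and it was lost when the fit lacked any 1 of VEH-Sham 1 to 4 or EPO-HI 11, 12, 14 or 15 (limma adjusted p up to 0.108) and after quantile normalization. Of 12 genes of striatal projection neurons 2 fell (16.7%, beside 8.44% of all genes). They were Pde10a (a phosphodiesterase) and Tac1 (the substance P precursor), at -0.57 and -0.40. Neither was backed, at 0.02 and 0.19 from VEH-Sham 5, and the list's median of -0.11 turned to 0.16 with array medians made equal. Both were lost without VEH-Sham 1, 2 or 4 or EPO-HI 11, 12 or 15, and Tac1 also without VEH-Sham 3 or EPO-HI 14 (limma adjusted p up to 0.0882 and 0.112).

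Myelin genes had the lowest median of the 28 lists, -0.36, but -0.08 from VEH-Sham 5. Of 13 genes 2 fell (15.4%, beside 8.44% of all genes). They were Mog and Mal, both myelin membrane proteins, at -0.99 and -0.86 (-0.71 and -0.20 from VEH-Sham 5). Neither was backed, Mog because both group means lay under 6. Mog was lost without VEH-Sham 2, 3 or 4 or EPO-HI 11 or 12, and Mal without VEH-Sham 3 or 4 or EPO-HI 11 (limma adjusted p up to 0.0721 and 0.0637). Of 9 oligodendrocyte precursor genes 1 fell (11.1%, beside 8.44% of all genes). It was Enpp6, a choline phosphodiesterase of newly formed oligodendrocytes, which fell by 0.60 (-0.46 from VEH-Sham 5). It was lost without VEH-Sham 1 or 2 (limma adjusted p up to 0.0553), and Mog, Mal and Enpp6 each missed the threshold under both other scalings and with EPO-HI 15 and VEH-Sham 3 left out. The 1 other Enpp6 probe set had the opposite sign against either control.

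Of 19 hypoxia-inducible and glycolytic genes, which respond to low oxygen, 3 rose (15.8%) and 1 fell (5.26%), beside 5.66% and 8.44% of all genes. The median was 0.11, with -0.02 from VEH-Sham 5. After quantile normalization 2 rose and 1 fell, and with array medians made equal 8 rose and 1 fell, at a median of 0.38 beside 0.21 for all genes. Plin2, which coats lipid droplets, read 9.67, 8.67, 8.20, 8.50 and 9.23 in EPO-HI and 7.52 to 7.86 in VEH-Sham, and rose by 1.18 (SE 0.25, limma adjusted p = 0.00819, 1.21 from VEH-Sham 5). Vegfa, the vessel growth factor, read 6.86 to 7.17 against 7.42 to 7.89 and fell by 0.63 (SE 0.12, limma adjusted p = 0.00504, -0.35 from VEH-Sham 5). Both genes were backed with no overlap, but the 1 other Vegfa probe set had the opposite sign against either control. The glycolytic genes Ldha and Aldoa passed at 0.33 and 0.34 but stood at -0.07 and -0.02 from VEH-Sham 5, and both were lost when the fit lacked any 1 of VEH-Sham 1 to 4 or EPO-HI 11, 12, 14 or 15 (limma adjusted p up to 0.112 and 0.129).

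Of 24 immediate early genes, the first transcripts of a stimulated cell, 2 rose (8.33%) and 3 fell (12.5%), beside 5.66% and 8.44% of all genes, with a median of 0.21. The balance turned with the scaling: 5 rose and 3 fell after quantile normalization, and 10 rose and 1 fell with array medians made equal. Nr4a2, a nuclear receptor, was the only 1 of these 5 that was backed, with a difference of -0.61 (-0.62 from VEH-Sham 5). It was lost without VEH-Sham 1, 3 or 4 or EPO-HI 11 or 15 (limma adjusted p up to 0.0760) and with array medians made equal. Egr3 and Fosb, transcription factors, passed at -0.55 and -0.93 (-0.18 and -0.43 from VEH-Sham 5). The rises were Ier3 and Maff at 0.99 and 0.77 (0.64 and 0.89 from VEH-Sham 5), and each was lost without VEH-Sham 1, 3 or 4 or EPO-HI 11, 12, 14 or 15, Ier3 also without VEH-Sham 2 (limma adjusted p up to 0.113 and 0.0842). Of the 5 only Fosb passed with EPO-HI 15 and VEH-Sham 3 left out. Fos, picked after its values were seen as the best known of the list, read 9.05, 7.82, 7.61, 8.08 and 9.81 in EPO-HI against 6.96 to 7.48, with no overlap. Its difference of 1.31 (SE 0.44, limma adjusted p = 0.0556, 0.99 from VEH-Sham 5) did not pass.

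Of 14 heat shock genes 1 rose and 1 fell (7.14% each), and of 18 genes of the unfolded protein and integrated stress response 2 rose and 2 fell (11.1% each), none of them backed, beside 5.66% and 8.44% of all genes. With array medians made equal 4 and 8 of these genes rose and 0 fell, and after quantile normalization 1 and 1 rose and 3 and 0 fell. Hspe1, a mitochondrial chaperonin, and the co-chaperone gene Dnaja1 were at 0.49 and -0.37 (0.10 and 0.03 from VEH-Sham 5), and Pdia4 and Manf, which act in the endoplasmic reticulum, at 0.49 and 0.29 (0.19 and 0.16). The falls of the stress response were Herpud1 and Sesn2, at -0.41 and -0.66 (-0.24 and -0.44). All 6 lost their call without VEH-Sham 1 or EPO-HI 11 and with EPO-HI 15 and VEH-Sham 3 left out, and each also without at least 3 other single arrays (limma adjusted p up to 0.127). Of 19 apoptosis and p53 genes 1 rose, the cell cycle inhibitor Cdkn1a, by 0.55 (SE 0.11, limma adjusted p = 0.00593, 0.30 from VEH-Sham 5, backed). Of 19 cell cycle genes Pcna and Mcm5, which act at the replication fork, rose by 0.48 and 0.78 (0.22 and 0.41 from VEH-Sham 5, both backed). The rises are 5.26% of the apoptosis list and 10.5% of the cell cycle list, beside 5.66% of all genes. With array medians made equal 7 apoptosis genes and 9 cell cycle genes rose and 0 fell, and after quantile normalization 2 and 4.

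The fall of Ccne1, the cyclin of S-phase entry, was -0.43 (-0.28 from VEH-Sham 5), and it was lost without VEH-Sham 1, 3 or 4 or EPO-HI 11, 12 or 14 (limma adjusted p up to 0.0865) and under both other scalings. Markers of other cells and regions are given by their counts, beside 5.66% of all genes that rose. Of 15 endothelial genes 2 rose, Pecam1 and the efflux pump gene Abcg2 (0.46, with 0.04 from VEH-Sham 5, lost without VEH-Sham 1 to 4 or EPO-HI 12, 14 or 15, limma adjusted p up to 0.0777), and 0 fell. These are 13.3% of the list. Of 10 neutrophil genes 1 rose (10%), of 12 meningeal and fibroblast genes 1 rose (8.33%), and of the erythroid (4), choroid plexus (9), hypothalamic (9) and thalamic (8) genes 0 passed. Csf3r, the receptor for granulocyte colony-stimulating factor, rose by 0.77 (SE 0.19, limma adjusted p = 0.0153, 0.75 from VEH-Sham 5) at a level of 5.70. With array medians made equal 5 endothelial, 2 neutrophil and 3 meningeal genes rose. So did 1 erythroid, 2 choroid plexus, 1 hypothalamic and 1 thalamic gene.

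Neutrophil genes were uneven within EPO-HI. S100a8 and S100a9, abundant neutrophil proteins picked after their values were seen, read 8.97 and 8.47 in EPO-HI 15 and 5.37 to 7.24 and 5.05 to 6.36 in the other EPO-HI arrays. Neither passed, at 1.03 (SE 0.67, limma adjusted p = 0.307) and 1.57 (SE 0.70, limma adjusted p = 0.136). The summed intensity of the 10 genes was 243.8 to 1058 in EPO-HI, 261.8 to 365.9 in VEH-Sham 1 to 4 and 218 in VEH-Sham 5. EPO-HI 15 was also highest for Ccl12, Ifi202b, Cd14, Lgals3 and Socs3, and the part of neutrophils in these values was not tested. Without EPO-HI 15 and VEH-Sham 3, Ccl12, Ifi202b, Cd14 and Lgals3 still passed and Socs3 did not, at 1.28 (limma adjusted p = 0.111). Of the meningeal genes Col3a1, a fibrillar collagen, rose by 0.45 (0.19 from VEH-Sham 5) and was backed, but did not pass with EPO-HI 15 and VEH-Sham 3 left out (limma adjusted p = 0.0645). The summed intensity of the 12 genes was 7975 to 8889 in EPO-HI, 5981 to 7306 in VEH-Sham 1 to 4 and 9576 in VEH-Sham 5. VEH-Sham 5 lay above all EPO-HI arrays in 7 of the 12 and below all of them in 3, beside 16.1% and 17% of all genes.

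**Figure D4:**
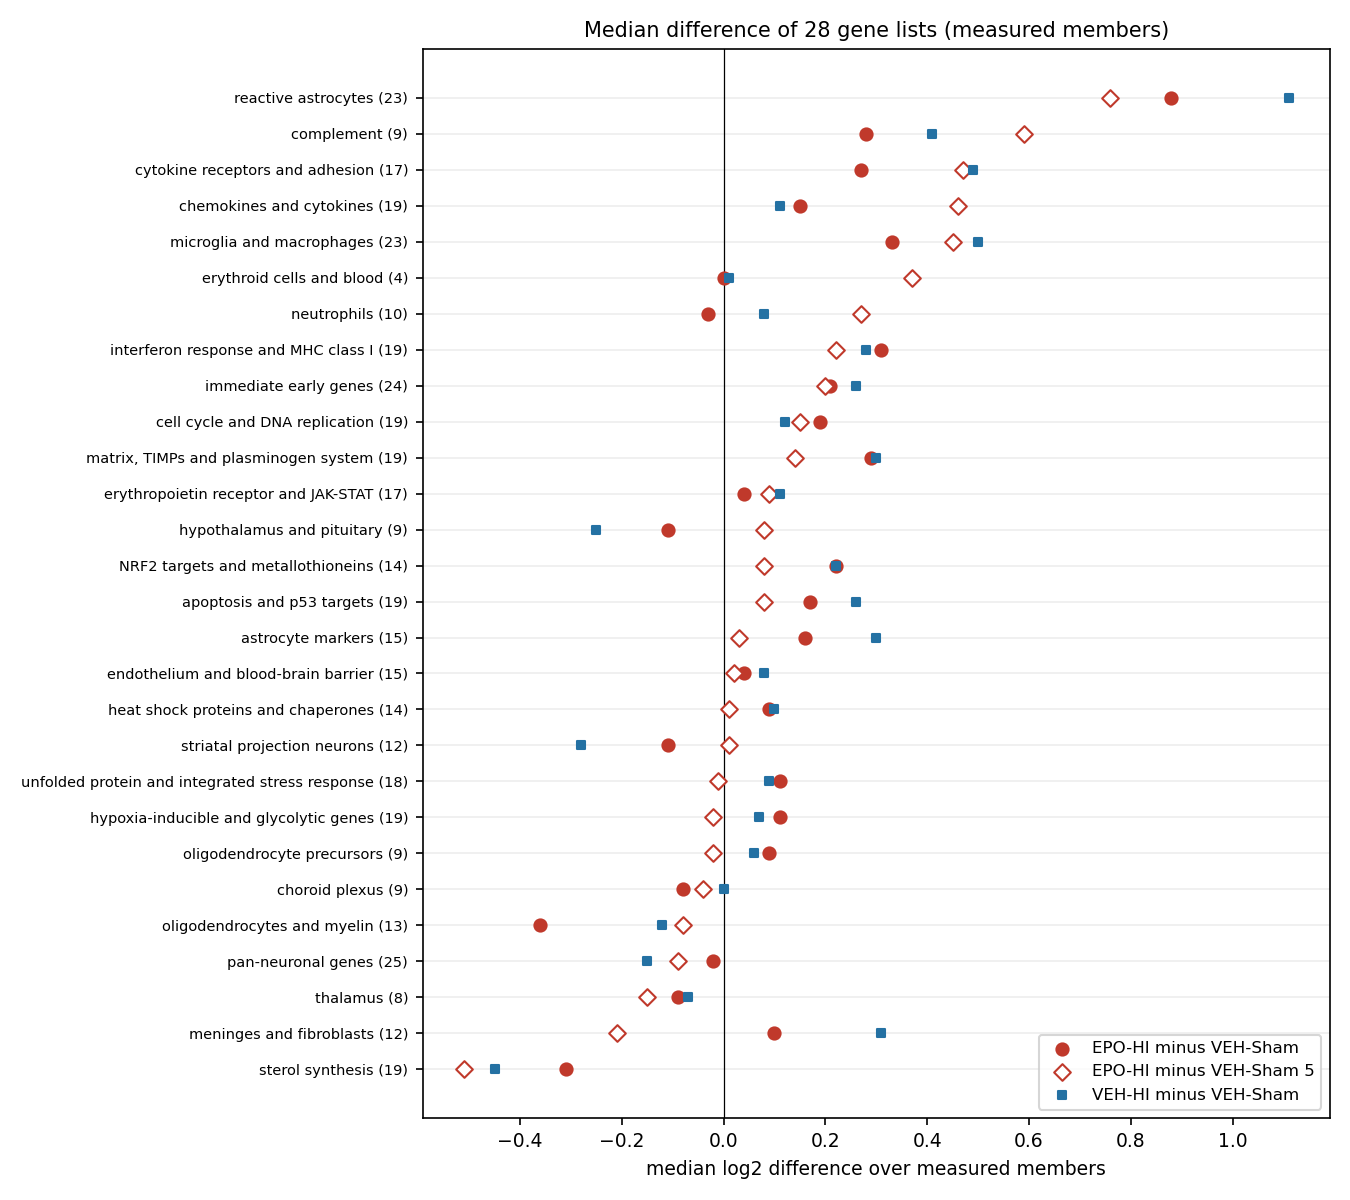
Median log2 difference of each of the 28 gene lists over its measured members, whose number stands in brackets, for EPO-HI minus VEH-Sham (red dots), EPO-HI minus VEH-Sham 5 (open diamonds) and VEH-HI minus VEH-Sham (blue squares). Reactive astrocyte genes have the highest medians (0.88 and 0.76 for EPO-HI) and sterol synthesis the lowest diamond (-0.51), while the myelin median moves from -0.36 to -0.08 with VEH-Sham 5 as control.

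The largest backed falls were of dim genes. The 10 named ones had EPO-HI means of 4.92 to 5.64, under every array's median of at least 5.79, and several are best known from other organs. Aqp2, the water channel of the kidney's collecting duct, read 4.29, 5.68, 4.58, 5.52 and 4.54 in EPO-HI and 6.40, 6.64, 6.38, 6.78 and 6.04 in VEH-Sham. The groups did not overlap, and the fall was -1.53 (SE 0.33, limma adjusted p = 0.00932, -1.12 from VEH-Sham 5). Tcaf2, which encodes a partner of the cold-sensing channel TRPM8, read 5.19, 4.60, 5.05, 5.08 and 5.16 against 6.09 to 6.29 and fell by 1.17 (SE 0.19, limma adjusted p = 0.00250, -1.08 from VEH-Sham 5). Cyp11a1, which makes the first steroid from cholesterol, fell by 1.09 (-1.06 from VEH-Sham 5), though 0 of its 2 other probe sets had the same sign against VEH-Sham 5. Marchf10, a ubiquitin ligase, fell by 1.79 (SE 0.30, limma adjusted p = 0.00353), with -0.92 from VEH-Sham 5, which at 6.34 read well under the other controls at 7.22 to 7.69.

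Sftpa1, a surfactant protein of the lung, fell by 1.15 (-0.91 from VEH-Sham 5) and passed without any 1 array, though not with EPO-HI 15 and VEH-Sham 3 left out (limma adjusted p = 0.0646). The adrenal steroid enzyme gene Cyp11b1, Efcab6, Tcl1b4, Angptl1 (an angiopoietin-like gene) and Pstpip2 (an actin-associated gene of macrophages) were at -1.06, -0.94, -0.89, -0.87 and -0.90. From VEH-Sham 5 they were at -0.99, -1.09, -0.97, -0.90 and -0.86, and each missed the threshold under both other scalings. All 5 also lost their call without 1 array: Cyp11b1 without VEH-Sham 1 or 4 or EPO-HI 11 or 14, Efcab6 without VEH-Sham 3 or 4 or EPO-HI 11 or 15, Tcl1b4 without VEH-Sham 2, 3 or 4 or EPO-HI 11, 13, 14 or 15, Angptl1 without VEH-Sham 1, 2 or 3 or EPO-HI 12 or 13, and Pstpip2 without VEH-Sham 3 (limma adjusted p up to 0.0886). Over all 391 backed falls the median level was 6.33 in EPO-HI and 7.01 in VEH-Sham, and over the 432 backed rises 8.52 and 7.95.

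In other genes VEH-Sham 5 went against the other controls. Cdc42bpb, a kinase that acts on the actin skeleton, read 5.46, 5.44, 5.48 and 5.02 in VEH-Sham 1 to 4, 7.50 in VEH-Sham 5 and 7.12 to 7.32 in EPO-HI. The arrays fell into VEH-Sham 1 to 4 and all others, so a difference of 1.43 that passed (SE 0.31, limma adjusted p = 0.00919) was -0.29 from VEH-Sham 5. Tmem44, a membrane protein gene, and Pecam1, an adhesion molecule of endothelium, passed at 1.57 and 1.35 but stood at -0.35 and -0.04. Among falls Arap3 (a regulator of small GTPases) was at -1.40 and 0.46, Igdcc3 (an immunoglobulin superfamily gene) at -1.35 and 0.34, and Zc3h3 (a zinc finger gene) at -1.43 and 0.13. Arap3 also lost its call when the fit lacked any 1 of VEH-Sham 1 to 4 or EPO-HI 11 or 14 (limma adjusted p up to 0.0640).

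Set beside VEH-HI, the EPO-HI levels of these genes were close. Of 45037 probe sets 0 passed between EPO-HI and VEH-HI (0%, limma, smallest adjusted p 0.321), and 1896 had an unadjusted p under 0.05. These 1896 are a share below 0.05, no more than chance alone would give. When VEH-HI 8 was dropped, 2 probe sets passed, Iftap at -1.02 and 1 with no single gene symbol here at 0.84. Ccl12 differed by 0.09 (95% interval -0.74 to 0.92), Lgals3 by -0.27 (-0.87 to 0.33), Timp1 by -0.21 (-0.64 to 0.22) and Socs3 by -0.40 (-1.27 to 0.46). These intervals are wide, so they do not show that the groups are alike. Both groups are compared with the same VEH-Sham arrays, and the median of the reactive astrocyte list was 0.88 for EPO-HI and 1.11 for VEH-HI, and that of sterol synthesis -0.31 and -0.45.

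Among 93 named genes the interval left out 0 for 4, no more than chance alone would give. They were Fosb, Mal, Col3a1 and Pde10a, singled out after their values were seen. Fosb read 4.50, 4.59, 4.67, 4.71 and 5.26 in EPO-HI and 5.24 to 5.67 in VEH-HI, a difference of -0.77 (-1.19 to -0.36) with EPO-HI 15 just above the lowest VEH-HI array. Mal was at -0.70 (-1.17 to -0.23), and Col3a1, which read 8.90 to 9.00 in EPO-HI and 8.94 to 9.66 in VEH-HI, at -0.34 (-0.56 to -0.11). Pde10a was at 0.40 (0.05 to 0.74). None of the 4 passed in limma over all probe sets.

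**Figure D5:**
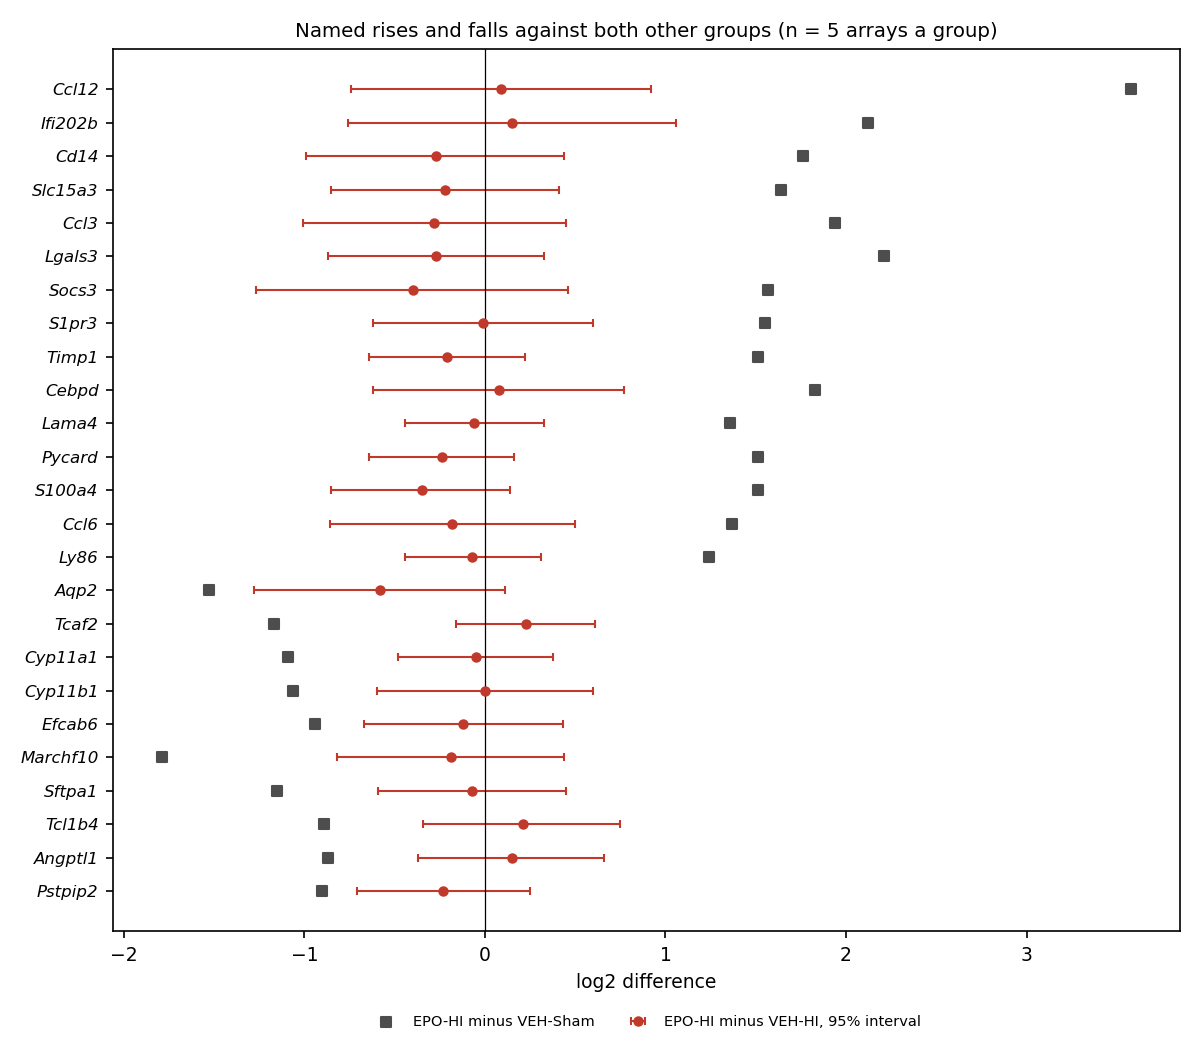
Log2 differences of the 15 largest backed rises and 10 largest backed falls: grey squares give EPO-HI minus VEH-Sham and red dots EPO-HI minus VEH-HI with 95% intervals (n = 5 arrays a group). All 25 intervals include 0, and the differences run from -0.58 (Aqp2) to 0.23 (Tcaf2), while the grey squares lie between -1.79 and 3.58.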

How the data were processed

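Total RNA of 15 mouse forebrain samples was measured on 1 array each, in 3 groups of 5 taken from the sample titles. Each probe set has 1 deposited intensity per array, on a linear scale. The sources used here do not name the authors' summary software. After trimming 2% of values from both tails, every array averages 150, and the authors' scaling was kept. Each group's number of arrays limits the precision. All 15 columns matched a sample title and 0 other columns were left.

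Intensities were converted to log2(intensity + 16). The 64 control probe sets were left out. All 15 arrays entered 1 fit with 3 group means in limma 3.58.1 (lmFit, eBayes with trend) under R 4.3.3, two-sided, with Benjamini-Hochberg adjustment over 45037 probe sets. The fit was tested on simulated data with independent noise. That simulation had no shift of VEH-Sham 1 to 4, so it says nothing about the effect of the array sets. No low-value filter was used. The 95% intervals come from the same fit. Array set means VEH-Sham 1 to 4 against the other 11 arrays, divided at the largest gap in array medians (0.24 on the log2 scale).

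Symbols came from GEO's platform annotation, matched to the RefSeq gene table of GRCm38.p6 by gene number (34741 probe sets, 0 symbols changed). Of the probe sets 34945 had 1 symbol, 932 several and 9160 none listed here. Those without 1 symbol are unnamed.

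The 28 gene lists held 459 distinct genes, 425 of them measured and 8 in more than 1 list. Many are expressed by forebrain itself. Named were the 15 rises and 10 falls backed by VEH-Sham 5 with the largest smaller difference from either control, up to 4 backed and 2 other passing members of each list, 3 rises and 3 falls with the opposite sign against VEH-Sham 5, and Epor. Genes outside this rule were named after their values were seen, and only some of them are marked so in the text. Unmarked ones include Gh, Pomc, Tmem119, Cx3cr1 and the further list members that passed, such as Osmr, Vcam1, Tyrobp, Cd68 and Mvd. The comparison, lists and rules were chosen with earlier results of these data known.

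Alternatives were other pseudocounts, a brightness filter, quantile normalization, equal array medians, only the compared arrays, no trend, the array set as a block, VEH-Sham 5 as only control, leaving out each array, and, added after seeing the data, leaving out EPO-HI 15 with VEH-Sham 3. Python 3.11.15 and matplotlib 3.10.9 made the figures.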

Additional observations from a re-analysis of the deposited data

Results flagged for a closer look

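In groups of 5 arrays, an array was singled out where its gap to the nearest other array, divided by the group's range, was above 0.71. This held in 20 of 186 groups of named genes. Chance gives about 1 in 20 where genes are not chosen for their values, which does not hold here: the named genes include 6 chosen because VEH-Sham 5 stood on the opposite side, and others chosen because they passed without its backing. The number of cases is therefore partly fixed by the choice of genes.

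VEH-Sham 5 was the array in 10 of the 20, of which Cdc42bpb, Pecam1, Zc3h3, Arap3 and Igdcc3 were chosen for that opposition and Akt1, Ldha and Stat2 as passing without backing. It stood above the other VEH-Sham arrays for Cdc42bpb (7.50, others 5.02 to 5.48), Pecam1 (6.49, others 4.61 to 4.85), Akt1 (9.32, others 8.51 to 8.70), Ldha (11.55, others 10.96 to 11.10) and Col3a1 (8.77, others 8.39 to 8.50). It stood below them for Zc3h3 (4.51, others 6.18 to 6.71), Arap3 (4.64, others 6.61 to 7.37), Igdcc3 (5.47, others 7.37 to 7.87), Cd44 (6.83, others 7.44 to 7.59) and Stat2 (5.81, others 6.51 to 6.71).

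Among the other VEH-Sham arrays, VEH-Sham 3 was high for Sftpa1 (6.68) and Stat3 (8.23), VEH-Sham 1 low for C1qa (7.95) and VEH-Sham 2 low for Nr4a2 (8.49). In EPO-HI, array 11 was low for Marchf10 (4.54), Mmp3 (4.52) and Cyp51 (9.04), array 12 low for Tcaf2 (4.60), array 14 low for Ccne1 (6.48) and array 15 high for Fosb (5.26, others 4.50 to 4.71).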

How the results depend on the processing

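No paired analysis was possible because replicate numbers run from 1 to 15 through the series and no number is shared between groups. The 1798 higher and 3952 lower probe sets became 7507 and 1372 with equal array medians, and 1904 were lower after quantile normalization. With the array set as a block 1 was higher and 0 lower, and with VEH-Sham 5 as the only control 0 and 0. With EPO-HI 15 and VEH-Sham 3 left out, which leaves fewer samples, they were 398 and 981. Without 1 array they ranged from 834 to 3542 and from 1774 to 8816, both lowest without VEH-Sham 4 and highest without VEH-Sham 5. The other settings gave 1223 to 2005 higher and 2888 to 4500 lower. Between EPO-HI and VEH-HI 0 passed except for 2 without VEH-HI 8.

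The counts of backed genes and their settings were added after seeing the data. The 432 rises and 391 falls became 909 and 122 with equal medians, 1 and 0 with the block, 0 and 0 against VEH-Sham 5 alone and 181 and 161 with EPO-HI 15 and VEH-Sham 3 left out. Without 1 array they ranged from 286 (VEH-Sham 4) to 522 and from 237 (VEH-Sham 3) to 433, the falls being 238, 259 and 245 without VEH-Sham 1, 2 and 4. They were not run at other pseudocounts or without VEH-Sham 5, which they need.

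Of 60 named backed genes none reversed. With the block or VEH-Sham 5 alone the backing rule fixes this in advance, since both settings give the difference from VEH-Sham 5. Calls were lost in 3 at pseudocount 1, 2 at pseudocount 64, 0 of 54 tested among the brightest 60%, 11 after quantile normalization, 13 with equal medians, 2 with only the compared arrays, 6 with no trend, 24 with EPO-HI 15 and VEH-Sham 3 left out and 2 to 15 without 1 array. All 60 were lost with the block or VEH-Sham 5 alone. By that rule these 2 settings could reverse only genes that were not backed. They reversed Tmem44 (-0.35), Cdc42bpb (-0.29), Pecam1 (-0.04), Akt1 (-0.16), Aldoc (-0.01), Ldha (-0.07), Aldoa (-0.02), Zc3h3 (0.13), Arap3 (0.46), Igdcc3 (0.34), Stat2 (0.02), Dnaja1 (0.03), Pde10a (0.02) and Tac1 (0.19). The cause was not tested. With 1 control in the array set of EPO-HI, its spread is taken from the other groups. Signal over background per probe set was not analysed here.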
